A study of Mus musculus with 24 samples.

Results

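The Hox genes of the mouse lie in 4 clusters, Hoxa, Hoxb, Hoxc and Hoxd. The 39 members described here are all protein-coding genes of the deposited expression table whose symbol is Hox followed by a cluster letter and a paralog number, out of 21833 genes. Hoxa held 11 members, Hoxb 10, Hoxc 9 and Hoxd 9. Poly(A) RNA of adrenal glands and neuroblastoma tumors was sequenced with strand-specific libraries to compare normal glands with tumors induced by IGF2BP1, an RNA-binding protein, and MYCN, a transcription factor. All mice were of a C57Bl6/N background. AG were adrenal glands of mice without Cre (genotype CRE -, n = 3). AGM were adrenal glands without tumors from mice with 1 copy of the MYCN transgene (MYCN +/-, CRE +, n = 5). TI were tumors with the IGF2BP1 transgene (CRE +, n = 8, of which 7 were IGF2BP1 +/+ and 1 was IGF2BP1 +/-). TIM were tumors with both transgenes (IMP1/MYCN, CRE +, n = 8). Both transgenes sat at the Rosa26 locus behind a stop cassette, which an iCRE under the Dbh promoter removes in cells of the sympatho-adrenal lineage. Bulk RNA holds the other cells of a gland or tumor as well. The IGF2BP1 transgene lacked its 3′UTR. Ages and sexes of the mice are not used here, and the location of a tumor in the body could not be tied to a column of the table, so that libraries are numbered by their order in the table only. In the paper, nearly all IGF2BP1 tumors lay in the lower abdomen. Mice with both transgenes had adrenal tumors most often, and also tumors in the abdomen and beside the spine. Tumor site may thus differ between TI and TIM, and its part in the Hox genes was not tested.

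Hox proteins are transcription factors that bind DNA through a homeodomain. Within a cluster, genes with low paralog numbers lie at one end and are used at anterior levels of the embryo, and genes with high numbers lie at the other end and are used at posterior levels, so that the set of active Hox genes works as a positional code along the body axis. The adrenal gland and the sympathetic ganglia, from which neuroblastoma arises, form at trunk levels. Hox proteins bind many sites together with homeodomain cofactors of the TALE class, the Pbx, Meis and Pknox proteins.

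The members of a paralog group share much of their homeobox, which bears on how well sequencing reads can be assigned to 1 gene. Paralog group 9 has a member in each cluster, and these members took different courses between the groups. The coding sequence of the core of their DNA-recognition helix is printed below from GRCm39 (the same assembly as mm39, to which the reads were aligned), with capitals at the 5 of 30 positions at which the 4 genes differ:
Hoxa9 (chr6:52201257-52201286, minus strand): tggttCcagaaccgCAggatgaaAatgaaG
Hoxb9 (chr11:96165626-96165655, plus strand): tggttTcagaaccgGCggatgaaAatgaaG
Hoxc9 (chr15:102892503-102892532, plus strand): tggttTcagaaccgGAggatgaaGatgaaA
Hoxd9 (chr2:74529700-74529729, plus strand): tggttCcagaaccgTAggatgaaAatgaaA
Any 2 of these stretches differed at 2 to 4 of 30 bases. A match to this helix was found in the coding sequence of 35 of the 39 members. Over whole transcripts the members were distinct. Of all stretches of 50 bases, Hoxb9 and Hoxc9 shared 1, Hoxa6 and Hoxb4 shared 3, Hoxc5 and Hoxc10 shared 119 and Hoxd3 and Hoxd4 shared 339, and no other members shared any. The last 2 pairs share exons on the same strand. Hoxd3 has 38.2% and Hoxd4 52% of its exon bases in common with other genes, each with the other and with Gm28230, so the values of Hoxd3 and Hoxd4 are uncertain in how reads were split between them.

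The values are FPKM, read counts scaled to the length of the gene and the depth of the library, after a batch correction of the counts by the authors. All entries were whole multiples of 1 read within 0.01 reads, and the reads recovered this way, outside the 126 genes that exceeded 1000 FPKM in any library, numbered 12334076 to 23683176 per library. With those genes included the total was 12468968 to 21353172 reads across AG and TI, but 116740738 to 1170004708 across AGM and 58530450 to 888626365 across TIM. What part the batch correction had in these totals, and in the members Hoxa6, Hoxd1 and Hoxd3, which were near 0 in AG and TI and high in an AGM or TIM library, was not tested. No member exceeded 1000 FPKM. A count of 3 reads, the upper limit that 0 reads allow by counting error alone, corresponded to 0.00374 to 0.0459 FPKM depending on member and library. The labels give 3 sequencing runs. Run 1 held all AG samples and 6 TI samples, run 2 held all AGM samples, 1 TI and 3 TIM samples, and run 3 held 1 TI and 5 TIM samples. AG shared no run with AGM or TIM, so that run and group cannot be told apart when AGM or TIM is compared with AG. TIM and TI are also largely split by run, since most TI samples and no TIM sample were in run 1. Since runs could not be tied to columns, no comparison was repeated within a run. The tissue labels were checked with marker genes. The sum of 7 sympatho-adrenal markers overlapped between tumors (122 to 3891 FPKM) and AGM (1078 to 2063 FPKM) and was 83.8 to 121 FPKM across AG. The sum of 7 adrenal cortex markers (Star, Cyp11a1, Cyp11b1, Cyp11b2, Hsd3b1, Nr5a1 and Mc2r) was 506 to 536 FPKM across AG and 3001 to 3695 FPKM across AGM, against 0.0173 to 7.17 FPKM across TI and 0.281 to 5.81 FPKM across TIM. Cortex markers were thus near 0 in tumors. Single genes reached extreme values in AGM and TIM. Of 4 exocrine pancreas markers, Cpb1 was at 28333 to 57986 FPKM across AGM and at most 0.258 FPKM in any other library, whereas Cpa1 was at 7441 to 105724 FPKM in TIM libraries 1 to 4 and at most 0.0313 FPKM in any other library. Cela1 was at 12.1 to 24.5 FPKM across AGM and at most 4.04 FPKM in any other library. Pnlip was at 1.02 to 10.2 FPKM in TIM libraries 1 to 4 and at most 0.330 FPKM in any other library. The source of these values was not tested. Without TIM libraries 1 to 4, 15 members passed the threshold given below in TI vs AG and 17 in TIM vs AG. In AGM vs AG 8 passed, in TIM vs TI 7 and in TIM vs AGM 16. The member lost was Hoxc8 in TIM vs TI. Over all genes, 5164, 4378, 2722, 634 and 5559 of 9867 passed in the same order of contrasts. The sums of 6 kidney markers and 3 skeletal muscle markers stayed at or below 3.05 and 9.28 FPKM, and that of 4 immune markers lay between 3.01 and 10.6 FPKM in all groups. The sum of 4 Schwann cell markers was at most 5.19 FPKM outside TIM libraries 1 and 5 (11.9 and 20.01 FPKM), and that of 3 liver markers was at most 3.90 FPKM outside AGM, where it reached 1097 FPKM.

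**Figure D1:**
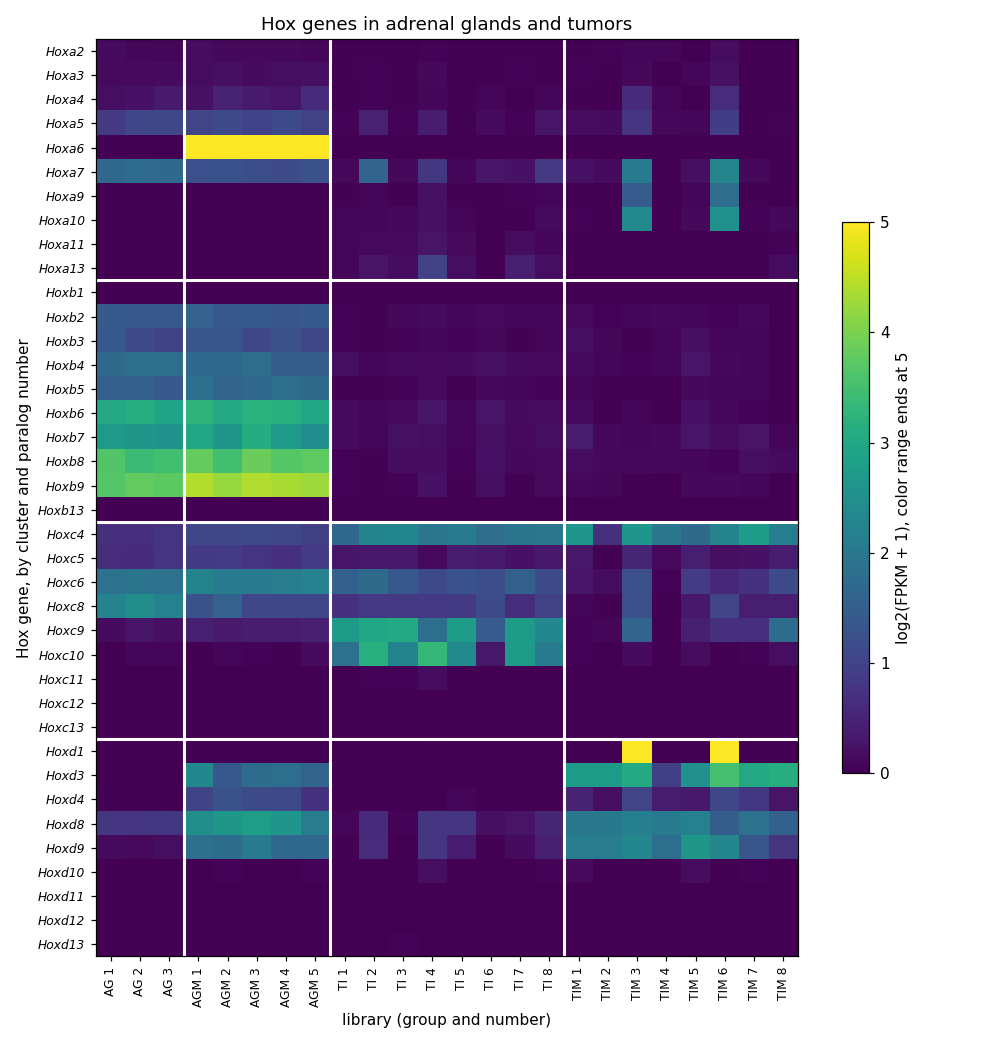
Level of 38 of the 39 Hox genes (vertical axis, by cluster and paralog number) in each of the 24 libraries (horizontal axis) as log2(FPKM + 1), with the color range ending at 5. The Hoxb block is filled in AG and AGM and empty in TI and TIM, Hoxc9 and Hoxc10 are filled in TI, and Hoxd3 to Hoxd9 are filled in AGM and TIM.

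Of the 39 members, 20 reached 1 FPKM in at least 3 libraries and were tested among 10171 genes, namely 3 of Hoxa, 8 of Hoxb, 5 of Hoxc and 4 of Hoxd. The other 19 were not tested. A member that passed this filter through 1 group alone had to differ between groups. Hoxa5 and the 8 Hoxb genes passed through AG and AGM alone, and the 4 Hoxd genes through AGM and TIM alone. This favored their differences from the other groups. The counts below thus describe the tested members and not the clusters as a whole. Groups were compared with limma on log2(FPKM + 1), a scale that understates changes of low genes, with a false discovery rate (FDR) below 0.05 over all tested genes as the threshold. In TI vs AG, 15 of the 20 tested members passed (3 higher and 12 lower in TI), where 52.4% of all tested genes passed (24.6% higher and 27.7% lower). The median log2 fold change of the members was -0.97. In TIM vs AG, 17 members passed (5 higher and 12 lower) beside 51% of all genes (22.5% higher and 28.5% lower), with a median of -1.08. In AGM vs AG, 8 passed (7 higher and 1 lower) beside 28.6% of all genes (14.6% higher and 14% lower), with a median of 0.20. After rescaling to the genes that never exceeded 1000 FPKM this count was 9, with 5 higher and 4 lower. Of the 10171 genes, 4412 then passed, 932 higher and 3480 lower. Hoxb2, Hoxb4, Hoxb6 and Hoxc8 were the lower members, so that the direction of small differences in AGM depends on the scaling. In TIM vs TI, 8 passed (4 higher and 4 lower) beside 22.9% of all genes (10% higher and 12.9% lower). In TIM vs AGM, 16 passed (2 higher and 14 lower) beside 65.3% of all genes (31.9% higher and 33.4% lower), with a median of -0.95. The median over all tested genes lay between -0.00 and 0.03 in all 5 contrasts. TI vs AG, TIM vs AG and AGM vs AG share the 3 AG libraries and are not independent of each other.

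The largest falls of members in TI vs AG and TIM vs AG were those of Hoxb genes. All 8 tested members, Hoxb2 to Hoxb9, were between 1.02 and 13.0 FPKM in AG and between 1.09 and 20.3 FPKM in AGM, whereas none exceeded 0.234 FPKM in TI or 0.306 FPKM in TIM. All 8 fell in TI vs AG, in TIM vs AG and in TIM vs AGM, by at least 1.09 on the log2(FPKM + 1) scale, and every tumor library lay below every AG and AGM library for each of them. Groups that do not overlap on the lower side were seen for 27.3% of all tested genes in TI vs AG, 24.7% in TIM vs AG and 20.8% in TIM vs AGM. The 8 Hoxb genes passed the filter through the glands alone, which favored falls in tumors. Their lack of overlap and their FDR in these contrasts are therefore descriptive only. None of the 8 passed the threshold in TIM vs TI, with log2 fold changes between -0.09 and 0.04.

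Hoxb9 (ENSMUSG00000020875, chr11:96162150-96167421, plus strand), the highest Hoxb gene in every gland, was at 11.7, 13.0 and 12.3 FPKM in the AG libraries and at 20.3, 17.8, 20.1, 19.3 and 18.3 FPKM in the AGM libraries. In TI it reached 0.0161 (lowest), 0.0318 (median) and 0.179 (highest) FPKM and in TIM 0 (lowest), 0.0529 (median) and 0.0843 (highest) FPKM. The glands and the tumors did not overlap, and the tumor values rested on 4 to 50 reads in TI and 0 to 23 reads in TIM, against 3242 to 3514 reads in AG. The mean fell from 12.3 ± 0.616 (SD, n = 3) to 0.0662 ± 0.0617 (SD, n = 8) FPKM in TI, a mean 186 times as high in AG. The log2 fold changes were -3.65 ± 0.07 (SE, limma FDR 1.41e-21) in TI vs AG, -3.67 ± 0.07 (SE, limma FDR 1.2e-21) in TIM vs AG and -4.27 ± 0.06 (SE, limma FDR 1.54e-25) in TIM vs AGM.

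Hoxb8, the neighbor of Hoxb9 and a member of paralog group 8, was at 11.5, 9.55 and 10.2 FPKM in AG and at 13.1, 10.2, 13.6, 11.8 and 12.5 FPKM in AGM. Its tumor values were 0.0197 (lowest), 0.0835 (median) and 0.184 (highest) FPKM in TI and 0.0379 (lowest), 0.0806 (median) and 0.149 (highest) FPKM in TIM. All 16 tumor libraries lay far below the glands, with mean levels 119 and 117 times as high in AG as in TI and TIM. Hoxb8 changed by -3.39 ± 0.08 (SE, limma FDR 3.88e-20) in TI vs AG, -3.39 ± 0.08 (SE, limma FDR 3.95e-20) in TIM vs AG and -3.60 ± 0.07 (SE, limma FDR 5.65e-23) in TIM vs AGM. Hoxb6 was at 7.06, 7.63 and 6.61 FPKM in AG and 8.46, 7.08, 8.19, 7.86 and 6.84 FPKM in AGM. It was at 0.0476 (lowest), 0.111 (median) and 0.234 (highest) FPKM in TI and at 0 (lowest), 0.0393 (median) and 0.185 (highest) FPKM in TIM. The groups did not overlap, and the log2 fold changes were -2.85 ± 0.08 (SE, limma FDR 8.48e-19) in TI vs AG and -2.94 ± 0.08 (SE, limma FDR 4.6e-19) in TIM vs AG.

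Hoxb7 stood at 5.50, 5.23 and 4.89 FPKM in AG and 6.78, 5.25, 7.60, 5.54 and 4.40 FPKM in AGM, and at 0.0538 to 0.168 FPKM in TI and 0.0547 to 0.306 FPKM in TIM. Among the 8 tested Hoxb genes it had the highest TIM value. The anterior members were lower in glands. Hoxb2, used from the hindbrain backwards, was at 1.68, 1.58 and 1.56 FPKM in AG and 1.97, 1.57, 1.66, 1.5 and 1.66 FPKM in AGM, against 0.0238 to 0.108 FPKM in TI and 0 to 0.0920 FPKM in TIM. Hoxb3 was at 1.61, 1.22 and 1.02 FPKM in AG and 1.49, 1.52, 1.11, 1.37 and 1.09 FPKM in AGM, against 0.0171 to 0.0826 FPKM in TI and 0.0106 to 0.149 FPKM in TIM. Both kept a gap between glands and tumors. Hoxb4 was at 2.30, 2.55 and 2.48 FPKM in AG and 2.18, 2.22, 2.43, 1.77 and 1.80 FPKM in AGM, and at 0.0566 to 0.166 and 0 to 0.210 FPKM in TI and TIM. Hoxb5 was at 1.90, 1.88 and 1.62 FPKM in AG and 2.56, 2.01, 2.24, 2.50 and 2.30 FPKM in AGM, and at 0.0112 to 0.0891 and 0 to 0.0789 FPKM in TI and TIM. The log2 fold changes of these 5 genes in TI vs AG were -2.48 (Hoxb7), -1.29 (Hoxb2), -1.13 (Hoxb3), -1.64 (Hoxb4) and -1.43 (Hoxb5), each with a limma FDR of 2.1e-11 or lower.

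**Figure D2:**
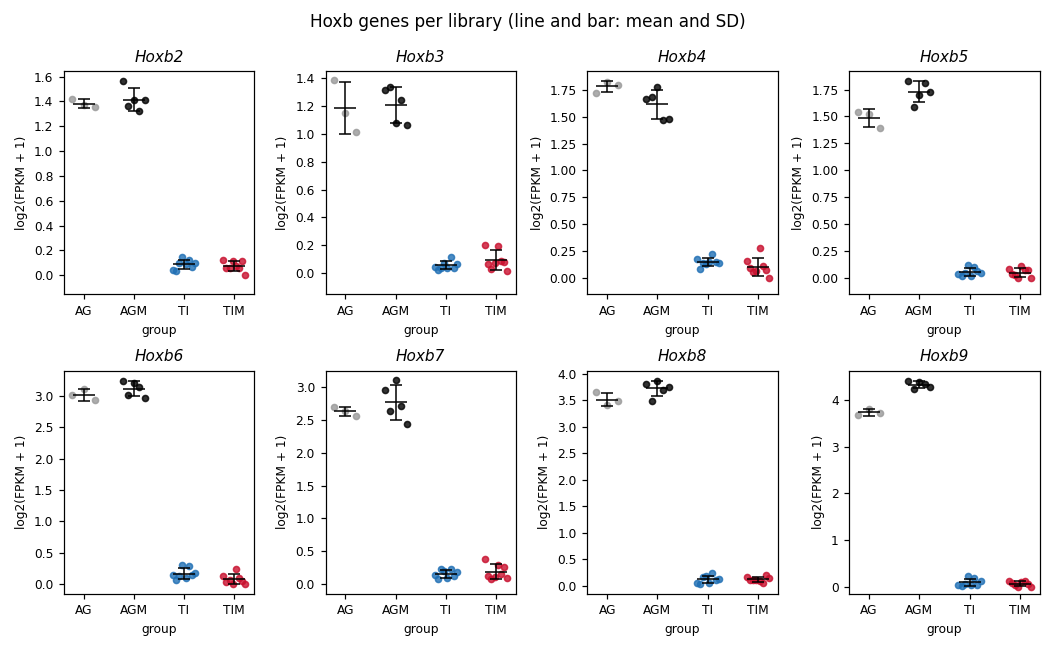
Level of the 8 tested Hoxb genes per library as log2(FPKM + 1) (vertical axis) in the 4 groups (horizontal axis), with points for libraries and a line and bar for the mean and SD. Every point of TI and TIM lies below every point of AG and AGM, with Hoxb9 at 11.7 to 13.0 FPKM in AG and at most 0.179 FPKM in tumors.

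Between the 2 kinds of gland, Hoxb9 and Hoxb5 passed the threshold in AGM vs AG, and the AGM values of both lay above all AG values. The log2 fold change was 0.60 ± 0.07 (SE, limma FDR 1.53e-06) for Hoxb9 and 0.25 ± 0.07 (SE, limma FDR 0.00783) for Hoxb5. After rescaling to the genes below 1000 FPKM, the change of Hoxb9 was 0.15 (limma FDR 0.26) and that of Hoxb5 -0.07 (limma FDR 0.53), so that neither call held. That of Hoxb5 was also lost without AG library 3 (0.20, limma FDR 0.079). The other 6 tested Hoxb genes did not pass in this contrast, although Hoxb8 passed without AG library 1 (0.28, limma FDR 0.046) or AGM library 2 (0.27, limma FDR 0.014). The sum of the 10 Hoxb members averaged 42.2 ± 1.35 FPKM for AG (SD, n = 3) and 52.4 ± 4.31 FPKM for AGM (SD, n = 5). For the tumors the same sum averaged 0.646 ± 0.294 FPKM (TI) and 0.566 ± 0.321 FPKM (TIM, SD, n = 8 each). After rescaling, the order of the glands turned, with 47.0 FPKM for AG and 42.6 FPKM for AGM.

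Markers of other cell types fell together with the Hoxb genes. In bulk RNA, fewer cells of a type and less RNA per cell cannot be told apart. All 7 cortex markers were tested, and 6 of 7 were lower in TI and in TIM than in AG. The sum of 4 adipocyte markers was 63.6 to 630 FPKM in AG and at most 0.345 FPKM in TI and 24.0 FPKM in TIM. The sum of the 10 Hoxb members in the 3 AG libraries was 40.7 to 43.3 FPKM, and their adipocyte sums were 63.6 to 630 FPKM. Of 6 tested capsule and mesenchyme markers, 5 were lower (Pdgfra, Rspo3, Tcf21, Dcn and Lum) and Col1a1 was higher in TI and in TIM than in AG. Pdgfra, a receptor of mesenchymal cells, was at 1.35 to 2.44 FPKM across AG and at most 0.132 FPKM in tumors. Of 4 endothelial markers, Tek and Kdr were lower in TI than in AG, and all 4 were lower in TIM than in AG. In TI library 6, with the highest cortex sum among tumors (7.17 FPKM), the Hoxb sum was 1.11 FPKM, also the highest among tumors. TIM library 5, next in cortex sum (5.81 FPKM), was next in Hoxb sum (1.034 FPKM). TI library 4 had a Hoxb sum of 1.026 FPKM with a cortex sum of 0.0379 FPKM. AGM, with a cortex sum well above AG, had a Hoxb sum of 47.7 to 56.9 FPKM. After rescaling, the mean Hoxb sum was 42.6 FPKM in AGM and 47.0 FPKM in AG. In TIM libraries 5 to 8, without reads of Cpa1 but still with 58530450 to 307616621 recovered reads in all, no tested Hoxb gene exceeded 0.221 FPKM. The part of other cell types in the fall of the Hoxb genes was not tested.

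The Hoxb cluster lies on chromosome 11 (chr11:96085106-96259082 on GRCm39), and the mouse Igf2bp1 gene (chr11:95847989-95896911) ends 188.2 kb before Hoxb13 and 265.2 kb before Hoxb9. Mouse Igf2bp1 itself was at or below 0.0796 FPKM in every library. Of 12 genes fixed as neighbors of the Hoxb cluster, 7 were tested. In TI vs AG 3 of them were higher and 2 lower, and in TIM vs AG none was higher and 2 were lower. The 2 lower genes were the same in both contrasts. Copz2, a subunit of the coatomer coat of transport vesicles, was at 3.26 to 3.59 FPKM across AG, against 0.130 to 0.554 FPKM across TI and 0.231 to 1.14 FPKM across TIM. Nfe2l1, a transcription factor of proteasome genes, was at 19.8 to 20.8 FPKM across AG, against 4.75 to 10.5 FPKM across TI and 3.18 to 15.9 FPKM across TIM. Ube2z, a ubiquitin-conjugating enzyme, was higher in TI at 5.48 to 13.5 FPKM against 5.17 to 6.05 FPKM in AG (0.68, limma FDR 0.00125), with overlapping ranges. Of the neighbors of the other clusters, 4 were tested for Hoxa (2 higher and 1 lower in TI vs AG), 5 for Hoxc (1 higher and 2 lower) and 3 for Hoxd (none higher and 2 lower).

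The Hoxc genes did not move as a block. Hoxc4 rose in both kinds of tumor, Hoxc9 and Hoxc10 rose in TI, and Hoxc6 and Hoxc8 fell in both. In TIM vs TI, 4 of the 5 tested members were lower in TIM, with Hoxc10 and Hoxc9 the members with the largest falls.

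Hoxc10 (ENSMUSG00000022484, chr15:102875134-102880330, plus strand), a member of the group that specifies lumbar levels, was at 0.00488, 0.0547 and 0.0444 FPKM in AG and 0.00646, 0.0513, 0.0326, 0.0242 and 0.113 FPKM in AGM. In TI it reached 0.248 (lowest), 3.96 (median) and 9.0 (highest) FPKM and in TIM 0 (lowest), 0.0310 (median) and 0.141 (highest) FPKM. All 8 TI libraries lay above all libraries of the other groups, with TI library 6 the lowest of TI and the next at 2.68 FPKM. The mean was 4.56 ± 2.83 (SD, n = 8) FPKM in TI and 0.0537 ± 0.0578 (SD, n = 8) FPKM in TIM. On the log2 scale it changed by 2.21 ± 0.36 (SE, limma FDR 1.69e-05) in TI vs AG and -2.19 ± 0.26 (SE, limma FDR 1.13e-05) in TIM vs TI, where it was the 4th lowest of 10171 genes. Hoxc10 reached 1 FPKM in 7 TI libraries and in no library of the other groups, so it passed the filter through TI alone. Its FDR, rank and lack of overlap are therefore descriptive only. With limma-voom on the recovered reads the TI vs AG change was 6.91 and did not pass (FDR 0.072). In TIM vs TI, 1 member did not overlap on the lower side, namely Hoxc10, beside 0.787% of all genes.

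Hoxc9 (ENSMUSG00000036139, chr15:102884117-102893531, plus strand), a thoracic gene, was at 0.0997, 0.215 and 0.147 FPKM in AG and 0.355, 0.278, 0.302, 0.323 and 0.349 FPKM in AGM. It was at 1.71 (lowest), 5.61 (median) and 7.33 (highest) FPKM in TI and 0 (lowest), 0.473 (median) and 2.42 (highest) FPKM in TIM. TI lay above all glands. TIM was spread from library 4, without reads, to libraries 3 and 8, which at 2.11 and 2.42 FPKM exceeded the lowest TI library. The mean was 31.9 times as high in TI as in AG, with a log2 fold change of 2.27 ± 0.35 (SE, limma FDR 8.46e-06) in TI vs AG and -1.81 ± 0.26 (SE, limma FDR 6.99e-05) in TIM vs TI. In TIM vs AG it did not pass (0.46, limma FDR 0.277). Hoxc9 reached 1 FPKM in 8 TI and 2 TIM libraries and in no gland. It thus passed the filter only through TI, and its FDR values are descriptive only.

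Hoxc4, at the anterior end of the cluster, was at 0.610, 0.621 and 0.690 FPKM in AG and 1.09, 1.1, 1.14, 1.08 and 0.916 FPKM in AGM. In tumors it reached 2.17 (lowest), 2.91 (median) and 3.88 (highest) FPKM in TI and 0.621 (lowest), 3.50 (median) and 5.81 (highest) FPKM in TIM. Each tumor library lay above AG except TIM library 2, which at 0.621 FPKM lay within AG. The log2 fold change was 1.28 in TI vs AG (limma FDR 0.000388) and 1.38 in TIM vs AG (limma FDR 0.000179), and TIM and TI did not differ beyond their spread (0.10, limma FDR 0.765).

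Hoxc6 was at 2.65, 2.81 and 2.64 FPKM in AG and 3.73, 3.22, 3.22, 3.30 and 3.67 FPKM in AGM, and at 1.16 (lowest), 1.49 (median) and 2.31 (highest) FPKM in TI and 0.0280 (lowest), 0.562 (median) and 1.33 (highest) FPKM in TIM. Its tumor values lay below all glands. It fell by 1.26 on the log2 scale in TIM vs AG (limma FDR 1.06e-05) and by 0.73 in TIM vs TI (limma FDR 0.0013), whereas its change of -0.53 in TI vs AG (limma FDR 0.0275) no longer passed when any 1 AG library was left out (FDR 0.068 to 0.087). Hoxc8 was at 3.64, 4.52 and 3.61 FPKM in AG and 1.38, 1.97, 1.1, 1.12 and 1.1 FPKM in AGM, and at 0.581 (lowest), 0.787 (median) and 1.20 (highest) FPKM in TI and 0 (lowest), 0.301 (median) and 1.32 (highest) FPKM in TIM. All libraries of AGM, TI and TIM lay below AG. Hoxc8 was the 1 member that passed as lower in AGM vs AG (-1.09, limma FDR 0.000639, but FDR 0.067 with a pseudocount of 0.1), and its changes were -1.44 in TI vs AG and -1.85 in TIM vs AG (limma FDR 2.61e-06 and 6.22e-08). The difference of -0.41 between TIM and TI was at the threshold (limma FDR 0.0473) and was lost when any 1 library other than AGM library 2 or TIM libraries 3 and 6 was left out (FDR 0.051 to 0.10).

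**Figure D3:**
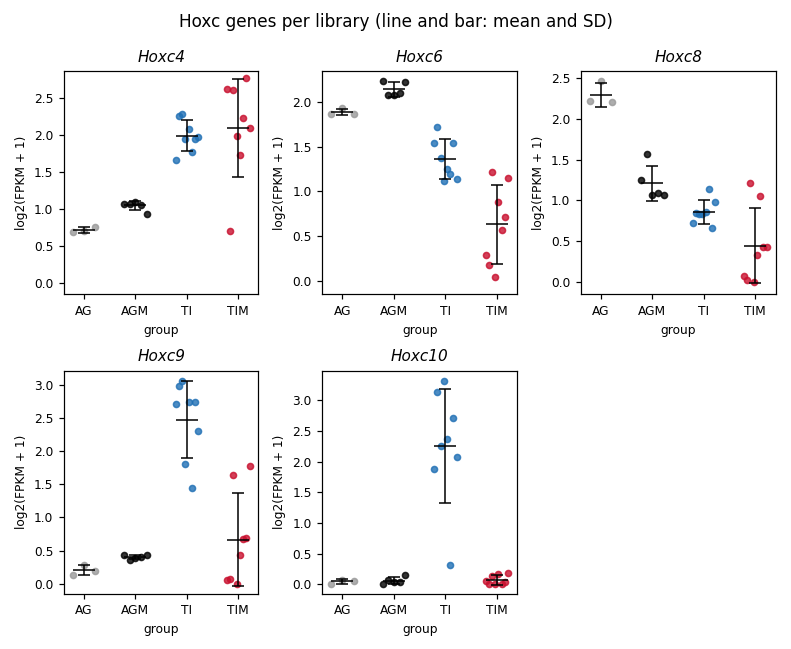
Level of the 5 tested Hoxc genes per library as log2(FPKM + 1) (vertical axis) in the 4 groups (horizontal axis), with points for libraries and a line and bar for the mean and SD. Hoxc10 is at 0.248 to 9.0 FPKM in TI and at most 0.141 FPKM in every other library, and Hoxc4 is high in both kinds of tumor.

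The 4 tested Hoxd genes followed another division. Hoxd3, Hoxd4, Hoxd8 and Hoxd9 were low in AG and TI and higher in AGM and TIM. All 4 passed the threshold as higher in AGM vs AG, in TIM vs AG and in TIM vs TI. They passed the filter through AGM and TIM alone, so that their FDR in these 3 contrasts is descriptive only. None passed in TI vs AG, where Hoxd8 (-0.38, limma FDR 0.0741) did not overlap with AG and passed as lower without TI library 4 or 5 (-0.44, limma FDR 0.041 and 0.042), with a pseudocount of 0.1 (-1.18, limma FDR 0.027) and under limma-voom (-1.69, FDR 0.028). AGM and TIM are the groups with the MYCN transgene and also the groups without samples of run 1, so that transgene and run cannot be told apart in their comparisons with AG. TIM vs TI is uneven in run as well, since run 1 held 6 of the 8 TI samples and no TIM sample. In TIM libraries 5 to 8, without reads of Cpa1, Hoxd8 was at 1.80 to 3.58 FPKM and Hoxd3 at 4.81 to 10.6 FPKM. Extreme values of other genes remained there, with 58530450 to 307616621 recovered reads in all, against 12468968 to 21353172 across AG and TI.

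Hoxd3 (ENSMUSG00000079277, chr2:74542271-74578786, plus strand) had 0 to 1 reads in the TI libraries and 1 read in each AG library. It was at 4.04, 1.60, 2.39, 2.51 and 2.05 FPKM in AGM and at 0.917 (lowest), 6.34 (median) and 10.6 (highest) FPKM in TIM, on 614 to 1374 and 513 to 3985 reads. Every AGM and TIM library lay above every AG and TI library. The log2 fold change was 1.77 ± 0.34 (SE, limma FDR 0.00039) in AGM vs AG and 2.7 ± 0.23 (SE, limma FDR 1.18e-07) in TIM vs TI. Its size depends on the pseudocount, since AG and TI are at or under 1 read. At most 10 reads in each of the AG and TI libraries, combined with 1000 reads or more in an AGM or TIM library, were seen for 3 of the 39 members, Hoxa6, Hoxd1 and Hoxd3, and for 489 of the 21833 genes.

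Hoxd8 was at 0.740, 0.741 and 0.745 FPKM in AG and 4.53, 5.30, 5.91, 5.08 and 3.30 FPKM in AGM. In tumors it was at 0.0328 (lowest), 0.330 (median) and 0.729 (highest) FPKM in TI and 1.80 (lowest), 3.03 (median) and 3.58 (highest) FPKM in TIM. Unlike Hoxd3 it was well above the limit of 3 reads in AG (214 to 218 reads) and in TI (9 to 256 reads), and AGM and TIM still lay above all AG and TI libraries. The mean was 6.50 times as high in AGM as in AG, with a log2 fold change of 1.72 ± 0.19 (SE, limma FDR 2.8e-07), and 7.85 times as high in TIM as in TI (1.5, limma FDR 1.42e-07). Hoxd9 was at 0.109, 0.0978 and 0.137 FPKM in AG and 2.62, 2.41, 3.15, 2.24 and 2.22 FPKM in AGM, and at 0.00468 (lowest), 0.211 (median) and 0.727 (highest) FPKM in TI and 0.709 (lowest), 3.32 (median) and 5.24 (highest) FPKM in TIM. The lowest TIM library (library 8) overlapped with the highest TI library, and the log2 fold changes were 1.66 in AGM vs AG and 1.62 in TIM vs TI (limma FDR 0.000126 and 1.13e-05). Hoxd4 had 3 to 6 reads in AG and 0 to 16 reads in TI, and was at 1.03, 1.35, 1.20, 1.14 and 0.668 FPKM in AGM and 0.149 (lowest), 0.363 (median) and 1.09 (highest) FPKM in TIM. Its log2 fold changes were 1.02 in AGM vs AG and 0.56 in TIM vs TI (limma FDR 4.65e-05 and 0.00133).

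Within TI, the Hoxd genes separated the libraries. Hoxd8 was at 0.460 to 0.729 FPKM in TI libraries 2, 4, 5 and 8 and at 0.0328 to 0.200 FPKM in the others, and Hoxd9 was at 0.315 to 0.727 FPKM and 0.00468 to 0.107 FPKM in the same libraries. Those 4 libraries stayed below the AG values of Hoxd8 (0.740 to 0.745 FPKM) and above the AG values of Hoxd9 (0.0978 to 0.137 FPKM). In TIM vs AGM, Hoxd3 was higher and Hoxd4 and Hoxd8 were lower in TIM (0.93, -0.47 and -0.61, limma FDR 0.00412, 0.00266 and 0.0013), and the call for Hoxd8 was lost after rescaling (FDR 0.055). Groups that do not overlap on the higher side were seen for 3 members in TIM vs TI (Hoxd3, Hoxd4 and Hoxd8), where 0.767% of all genes had such groups. The filter favored such groups for these members, so that the count is descriptive only.

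MYC and MYCN proteins bind the E-box CACGTG, a palindrome that reads the same on both strands. RefSeq promoters (GRCm38.p6, 250 bases before to 50 after the start) were at hand for 22 of the 39 members, and 5 of these held the motif, beside 8.09% of 27025 genes. All 5 were Hoxd genes (Hoxd1, Hoxd4, Hoxd10, Hoxd11 and Hoxd13), of 9 Hoxd genes with a promoter. Of Hoxa, Hoxb and Hoxc, 9, 3 and 1 promoters were at hand and none held it. The motif was not in these windows of Hoxd3, Hoxd8 and Hoxd9. The motif is shown in capitals, with its surroundings in lower case, for the 2 genes that reached 1 FPKM in AGM or TIM. The stretches were placed on GRCm39 by exact match, with the motif centre at -18 (Hoxd1) and 1 (Hoxd4) bases from the RefSeq start:
Hoxd1 (chr2:74593291-74593320, plus strand): gctggctggcgcCACGTGgctgccgccgcc
Hoxd4 (chr2:74552308-74552337, plus strand): gctatttataagCACGTGattccaataaac
The genes Hoxd10, Hoxd11 and Hoxd13 also held the motif and stayed at or below 0.132 FPKM in every library.

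Of the 3 tested Hoxa genes, Hoxa5 and Hoxa7 were lower in both kinds of tumor than in AG, and Hoxa6 was near 0 in all of these groups. Hoxa5 was at 0.794, 1.08 and 1.12 FPKM in AG and 1.05, 1.16, 1.02, 1.18 and 0.980 FPKM in AGM, and at 0.0250 (lowest), 0.0742 (median) and 0.382 (highest) FPKM in TI and 0.0233 (lowest), 0.0929 (median) and 0.876 (highest) FPKM in TIM. All TI libraries lay below AG, and TIM overlapped with AG through TIM library 6. The log2 fold change was -0.81 in TI vs AG and -0.72 in TIM vs AG (limma FDR 0.00014 and 0.000513). Hoxa7 was at 2.22, 2.35 and 2.27 FPKM in AG and 1.34, 1.40, 1.31, 1.20 and 1.36 FPKM in AGM. In tumors it was at 0.0598 (lowest), 0.212 (median) and 2.09 (highest) FPKM in TI and 0.0182 (lowest), 0.136 (median) and 3.86 (highest) FPKM in TIM. The highest TI value came from library 2, just below AG, and TIM libraries 3 and 6 (3.17 and 3.86 FPKM) exceeded AG. Its changes of -1.20 in TI vs AG and -1.07 in TIM vs AG (limma FDR 0.0188 and 0.0348) were lost without any 1 AG library (FDR 0.052 to 0.093), and the latter also without any 1 of TIM libraries 1, 2, 4, 5, 7 and 8 (FDR 0.050 to 0.057). In TIM vs AGM it did not pass (-0.57, limma FDR 0.152) but passed without TIM library 3 (-0.78, limma FDR 0.035), without TIM library 6 (-0.81, limma FDR 0.021) and without both (-1.08, limma FDR 8.83e-05).

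Hoxa6 (ENSMUSG00000043219, chr6:52183268-52185702, minus strand) was at 104, 136, 41.9, 122 and 139 FPKM in AGM, on 2942 to 10919 reads, and had 0 to 2 reads in every library of the other groups. The log2 fold change was 6.63 ± 0.23 (SE, limma FDR 4.8e-17) in AGM vs AG and -6.65 ± 0.18 (SE, limma FDR 1.3e-19) in TIM vs AGM, sizes that depend on the pseudocount. Hoxa6 passed the filter through AGM alone, so that its FDR is descriptive only. Its neighbors Hoxa5 and Hoxa7 did not pass in AGM vs AG (0.06 and -0.50, limma FDR 0.838 and 0.435). Every AGM value of Hoxa7 still lay below every AG value. With only these groups in the fit Hoxa7 passed (limma FDR 0.00011), where 6312 of 10171 genes did. In AGM vs AG, groups did not overlap for 10 members on the higher and 2 on the lower side, beside 29.4% and 32.5% of all genes.

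**Figure D4:**
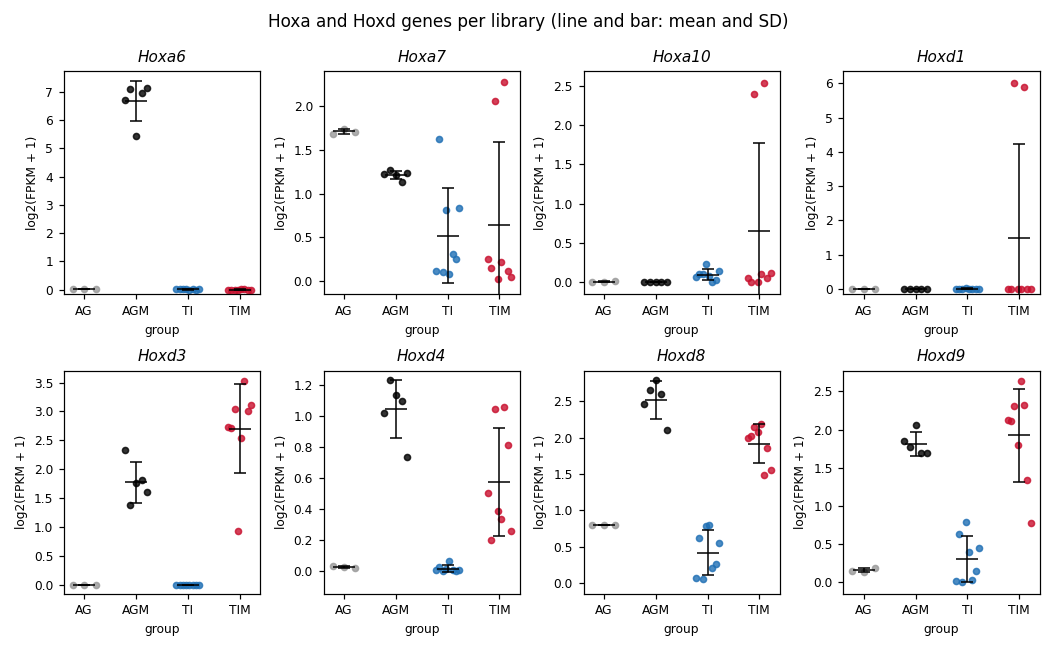
Level of 4 Hoxd genes that were tested, of Hoxd1 and of 3 Hoxa genes per library as log2(FPKM + 1) (vertical axis, a scale per gene) in the 4 groups (horizontal axis), with points for libraries and a line and bar for the mean and SD. Hoxa7 is high in AG and in 1 TI and 2 TIM libraries, Hoxa6 is high in AGM alone, Hoxd3 and Hoxd8 are high in AGM and TIM, and Hoxa10 and Hoxd1 are high in 2 TIM libraries.

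The members below the filter were near 0 with few exceptions. Of the 19, 16 did not reach 1 FPKM in any library, among them Hoxc12, with 0 reads in all 24. The 3 exceptions, Hoxa9, Hoxa10 and Hoxd1, reached 1 FPKM in TIM libraries 3 and 6 only. Hoxa9 was at 1.74 and 2.44 FPKM there and at most 0.175 FPKM in any other library. Hoxa10 was at 4.25 and 4.81 FPKM and otherwise at most 0.171 FPKM. Hoxd1 was at 63.1 and 57.8 FPKM and otherwise at most 0.0148 FPKM. The same 2 libraries had the highest Hoxa7 values of all 24, and the highest Hoxa5 values among tumors. The posterior genes Hoxa11 and Hoxa13 were listed above 0 in 7 of 8 TI libraries. Hoxa13, a gene of the tail end of the axis, was highest in TI library 4 (0.988 FPKM) and was at 0.329 FPKM in TI library 7, while it had no reads in AG and AGM and, among TIM, reads in TIM library 8 alone (0.122 FPKM). Hoxa2, Hoxa3 and Hoxa4 stayed at or below 0.557 FPKM, Hoxc5 reached 0.514 to 0.862 FPKM in glands and 0.0208 to 0.427 FPKM in tumors, Hoxc11, Hoxd10 and Hoxd13 stayed at or below 0.132 FPKM, and Hoxb1, Hoxb13, Hoxc13, Hoxd11 and Hoxd12 had at most 2 reads in any library.

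Read per library, the members at 1 FPKM or more gave a positional code for each sample. AG libraries had 11 to 12 such members, with Hoxa7, Hoxb9 and Hoxc8 as the highest paralogs and no Hoxd gene. AGM libraries had 15 to 18, with the same highest paralogs of Hoxa, Hoxb and Hoxc and with Hoxd9. TI libraries had 4 to 5. All 8 held Hoxc4, Hoxc6 and Hoxc9, and 7 of 8 held Hoxc10. In 6 of 8 these 4 genes were the whole set. TI library 6 held Hoxc8 in place of Hoxc10, and TI library 2 also held Hoxa7. TI thus lacked every Hoxb and Hoxd gene at this level, and its code reached 1 paralog further back in Hoxc than that of the glands, or 2 in 7 of 8 libraries.

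TIM libraries had 3 to 12 members at 1 FPKM or more. Hoxd8 was in all 8, and Hoxc4, Hoxd3 and Hoxd9 were each in 7 of 8. TIM libraries 1, 5 and 7 shared one set (Hoxc4, Hoxd3, Hoxd8 and Hoxd9). TIM library 2 lacked Hoxc4 from it and TIM library 4 lacked Hoxd3. TIM library 8 held Hoxc4, Hoxc6 and Hoxc9 with Hoxd3 and Hoxd8, whereas Hoxd9 was at 0.709 FPKM. TIM libraries 3 and 6 stood apart with 12 and 10 members, in which Hoxa7, Hoxa9, Hoxa10 and Hoxd1 joined the Hoxc and Hoxd genes. No TIM library held a Hoxb gene or Hoxc10 at this level.

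The mean paralog number weighted by FPKM, without Hoxa6, Hoxd1 and Hoxd3 (a choice made after seeing the data), condensed the code to 1 value. Glands lay between 6.97 and 7.0 (AG) and between 7.15 and 7.26 (AGM), and tumors between 6.40 and 8.41 (TI) and between 5.96 and 7.79 (TIM). With the 3 genes included the value was 6.97 to 7.0 (AG), 6.36 to 6.74 (AGM), 6.40 to 8.40 (TI) and 3.0 to 6.35 (TIM), so that AGM lay below AG in place of above it. Without them, TI library 4 was the highest and TIM library 7 the lowest of all 24. Of the 8 TI libraries, 7 were at 7.58 or above and thus above all glands, and TI library 6 was below them. The spread among tumors of a group (SD 0.591 in TI and 0.611 in TIM, n = 8 each) was wider than among glands (SD 0.0208 in AG, n = 3, and 0.0403 in AGM, n = 5).

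**Figure D5:**
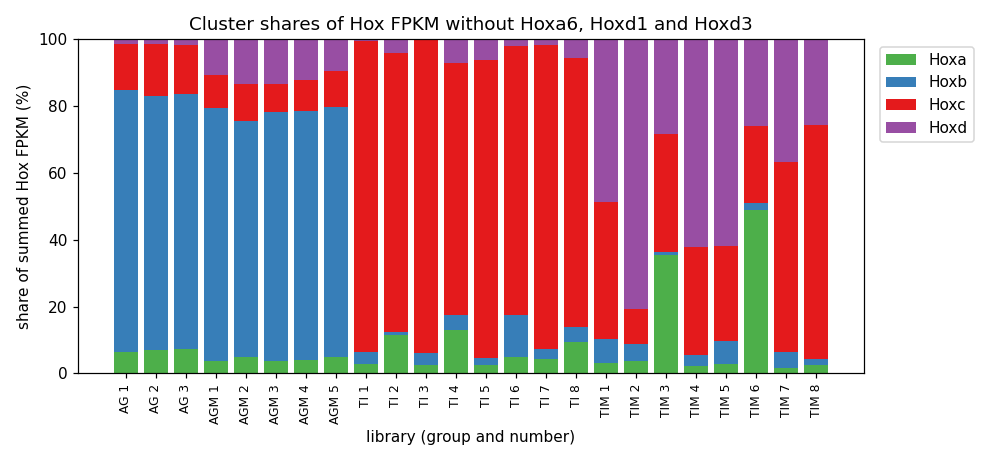
Share of each cluster in the summed FPKM of the Hox genes, without Hoxa6, Hoxd1 and Hoxd3 (vertical axis, percent), in each of the 24 libraries (horizontal axis). Hoxb holds 70.7% to 78.5% in glands, Hoxc holds 75.2% to 93.5% in TI, and in TIM the shares of Hoxc and Hoxd vary and Hoxa holds 35.3% and 48.8% in libraries 3 and 6.

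The cluster shares, without Hoxa6, Hoxd1 and Hoxd3, showed the same division. Hoxb held 76.0% to 78.5% of the summed Hox FPKM in AG and 70.7% to 75.5% in AGM, but 0.984% to 12.5% in TI and 1.1% to 7.25% in TIM. Hoxc held 75.2% to 93.5% in TI, and 10.5% (TIM library 2) to 69.9% (TIM library 8) in TIM. Hoxd held 25.8% to 80.8% in TIM and at most 7.28% in TI. The summed FPKM without the 3 genes was lower in tumors, averaging 54.9 ± 1.37 for AG (SD, n = 3) and 70.8 ± 4.87 for AGM (SD, n = 5), against 17.7 ± 5.19 for TI and 15.9 ± 7.88 for TIM (SD, n = 8 each). Over all members it was 53.4 to 56.1 FPKM for AG, 121 to 206 FPKM for AGM and 8.89 to 26.3 FPKM for TI, and for TIM 10.5 to 20.5 FPKM apart from libraries 3 and 6 (100.1 and 94.7 FPKM), which exceeded AG.

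The cofactors of Hox proteins changed in both directions. Of 9 TALE genes, 8 were tested, of which 5 were higher and 2 lower in TI vs AG, 3 higher and 2 lower in TIM vs AG, and 1 higher and 2 lower in AGM vs AG. Pbx3, which binds DNA next to Hox proteins, was lower in all 3. It was at 6.11 to 6.58 FPKM across AG and 1.92 to 3.91 FPKM across AGM, against 0.228 to 0.537 FPKM across TI and 0.0647 to 0.667 FPKM across TIM, without overlap of the tumors and the glands (TI vs AG -2.39, limma FDR 5.41e-13). Meis3 rose from 0.964 to 1.19 FPKM in AG to 3.03 to 5.20 in TI and 2.63 to 4.50 in TIM (TI vs AG 1.27, limma FDR 3.03e-08). Meis2 was at 3.83 to 7.58 FPKM in AGM and at most 0.354 FPKM in AG and TI, and was spread from 0.00435 to 10.9 FPKM in TIM. In TIM vs TI 4 of the 8 were lower and none was higher. Of 9 regulators of axial Hox expression, 2 were tested. Gdf11, a ligand that drives the switch to posterior Hox genes in the trunk, was higher in TI and TIM than in AG (0.89, limma FDR 0.00125 and 0.71, limma FDR 0.00777), and Rarg, a retinoic acid receptor, was lower (-1.0, limma FDR 3.35e-05 and -0.83, limma FDR 0.000272). Cdx2 had no reads in any library, and Cdx1, Cdx4 and T, a marker of axial progenitors, stayed at or below 0.0673 FPKM.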

How the data were processed

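Poly(A)-enriched, strand-specific RNA-seq of 24 mouse samples was used. The authors trimmed reads (cutadapt 2.8), aligned them to mm39 (HISAT2 2.1.0, SAMtools 1.10), counted them per gene (featureCounts 2.0.0) and corrected the counts for batch with ComBat-seq. The values the authors deposited are FPKM after TMM scaling in edgeR 3.40, for 21833 protein-coding genes with their lengths. ComBat-seq replaces counts by values of a fitted model, and its effect on counts near 0 was not tested. The table also holds fold changes, p-values and FDR of the authors against AG, which were not used. No column was left without a group, but column names carry no sample number.

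Groups were compared with limma 3.58.1 (R 4.3.3) on log2(FPKM + 1). The 10171 genes tested reached 1 FPKM in 3 or more libraries. The model was 1 fit of all 24 libraries without covariates, with the trended prior and Benjamini-Hochberg adjustment over all tested genes, and FDR below 0.05 as the threshold. The fit was tested on simulated data. Multiplying FPKM by gene length gave whole reads for 100.0% of values, within 0.01 reads, and these reads (12334076 to 23683176 per library outside the genes above 1000 FPKM, and up to 1170004708 with them) were used for limits of detection and for limma-voom. Intervals and limits of 3 reads cover counting error only. The paper counts individual mice as biological replicates in its blots and genotyping, and no column could be tied to a mouse. No pair of libraries was identical.

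The members and the lists (TALE cofactors, axial regulators, genes beside each cluster, cell type markers) were chosen with earlier results of these data known. Values per library were given for tested members past the threshold in any contrast, arranged by cluster, with full statistics for the 3 largest changes per contrast. Untested members were named where they reached 1 FPKM. 1 member and some listed genes are not reported here. Hoxa6, Hoxd1 and Hoxd3, with at most 10 reads in every AG and TI library and 1000 or more in another, were left out of the shares and the weighted paralog number, a choice made after seeing the data, as was the choice of the E-box. Alternatives were a pseudocount of 0.1, a filter at 0.1 FPKM, no filter, fits of only the groups compared, limma-voom, FPKM rescaled to the genes that never exceeded 1000 FPKM, and each library left out in turn. Leaving out TIM libraries 3 and 6, or 1 to 4, was added after seeing the data. Positions and exons were taken from GRCm39 with GENCODE M39, and promoters from RefSeq. Scripts used Python 3.11.15, pandas 2.3.3, numpy 2.4.6 and matplotlib 3.10.9.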

Additional observations from a re-analysis of the deposited data

Results flagged for a closer look

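In 60 groups of tested members (20 members in AGM, TI and TIM), the highest or lowest library was compared with the others by the gap to its nearest neighbor over the range of the group, and 4 exceeded Dixon's critical value. Chance gives about 1 in 20 such groups. Hoxa6 was at 41.9 FPKM in AGM library 3, against 104 to 139 FPKM in the other 4 AGM libraries. Hoxc4 was at 0.916 FPKM in AGM library 5, where the others lay between 1.08 and 1.14 FPKM. In TIM library 4, Hoxd3 was at 0.917 FPKM beside 4.81 to 10.6 FPKM in the other 7. In TI library 5, Hoxd4 was at 0.0424 FPKM, on 16 reads, beside 0 to 0.0141 FPKM in the other 7.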

How the results depend on the processing

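Of 64 calls of members in the 5 contrasts, 55 held under every alternative and 9 were lost under at least 1. Leaving out 1 library at a time gave 13 to 16 members past the threshold in TI vs AG, 16 to 17 in TIM vs AG, 7 to 9 in AGM vs AG, 7 to 8 in TIM vs TI and 16 to 17 in TIM vs AGM. With a pseudocount of 0.1, 5 members passed in AGM vs AG in place of 8, beside 2851 of 10171 genes. With only these groups in the fit 12 did, beside 6312 of 10171 genes, against 2908 in the main fit. After rescaling, which moved the median log2 fold change of all genes to -0.27 in AGM vs AG and 0.21 in TIM vs AGM, 3 small differences of AGM vs AG turned negative, namely Hoxb2 (-0.25), Hoxb5 (-0.067) and Hoxb6 (-0.31), and Hoxb5 was also negative under limma-voom (-0.12). Among all called genes, the share of higher calls fell from 51.2% to 21.1% in AGM vs AG and from 43.6% to 28.1% in TIM vs TI, and rose from 48.8% to 61.3% in TIM vs AGM. Relative to the shift of -0.27 in AGM vs AG, Hoxb2 (-0.25) and Hoxb6 (-0.31) moved with the bulk of genes. The rescaled cluster sums were 4.21 (Hoxa), 47.0 (Hoxb), 8.95 (Hoxc) and 0.978 FPKM (Hoxd) in AG, and 42.6 (Hoxb), 5.64 (Hoxc) and 9.0 FPKM (Hoxd) in AGM, so that Hoxb was lower in AGM than in AG after rescaling and higher before. At 0.1 FPKM in place of 1 FPKM, the median of the highest paralog became 13 for Hoxa in TI, 7 for Hoxa in TIM, 7 for Hoxb in TI and in TIM, 9 for Hoxc in AG, AGM and TIM, and 9 for Hoxd in AG and TI. For Hoxc in AGM it was 6 after rescaling. The cause of these changes was not tested. No paired analysis was possible because the columns carry no replicate number that matches the titles. Depth limits the members below about 3 reads, which in AG and TI include Hoxd3.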
